A study of Sus scrofa with 12 samples.

Results

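The sirtuins and the catalytic subunits of AMP-activated protein kinase (AMPK), long proposed as targets of resveratrol, were described in the jejunum of piglets. The list held 10 genes: SIRT1, SIRT2, SIRT3, SIRT4, SIRT5, SIRT6, SIRT7, PPARGC1A, PRKAA1 and PRKAA2. They were looked up by gene name in a table of 41264 assembled loci carrying 17049 different names, and loci that shared a name were summed. Of the 10 genes, 6 were found by name: SIRT1, SIRT2, SIRT3, SIRT4, SIRT6 and PRKAA2. PRKAA1 was found through its Ensembl identifier alone, ENSSSCG00000024598, and is given beside the 6 without entering their counts. SIRT5, SIRT7 and PPARGC1A were matched to no row and were not analysed here.

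RNA-seq was performed on samples labelled jejunum from 12 piglets, 3 in each of 4 groups. Sucking piglets were taken at 21 days of age, on the day of weaning, and weaned piglets at 28 days, 7 days after weaning. By the series description the sows, bred with Landrace boar semen, ate a corn-soybean meal diet, either alone (W_Con and PW_Con) or with 300 mg/kg resveratrol (W_Res and PW_Res) from early gestation until the end of lactation. The piglets were thus exposed through the mother. In the series' own description they were exchanged between litters of the same diet and stayed in their pens after the sows had left. The study's methods, which cover the control piglets alone, differ: they give Yorkshire × Duroc litters, a move to another room at weaning, and 1 male piglet taken from each litter at each age. Which description holds for these libraries could not be settled. The labels call the 3 libraries of a group biological replicates. Which litter each library came from, and whether resveratrol piglets shared a sow, is not given in the sources used here, so P-values measure the spread between these piglets.

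Sirtuins are enzymes that remove acetyl and other acyl groups from proteins and consume NAD in doing so, which ties them to the energy state of the cell. SIRT1, SIRT6 and SIRT7 act mainly in the nucleus, SIRT2 mainly in the cytoplasm, and SIRT3, SIRT4 and SIRT5 in mitochondria. AMPK senses a fall in cellular energy. It is built from a catalytic alpha subunit, encoded by PRKAA1 or PRKAA2, with a beta and a gamma subunit. PPARGC1A encodes PGC-1 alpha, a coactivator of mitochondrial genes that SIRT1 deacetylates and AMPK phosphorylates. Both families are regulated largely through enzyme activity, and the values below are mRNA levels.

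Values are FPKM, fragments mapped to a locus scaled to transcript length and to the mapped fragments of the library, which allow levels to be compared between genes. Read counts and library depths were not analysed here. The libraries differed in the summed FPKM of markers of cell types and gut regions. The summed FPKM of 10 villus enterocyte markers, led by APOA4, ranged from 2954 in W_Res replicate 2 to 9885 in W_Con replicate 2, and no member of that list was at 0 in any library. The 7 smooth muscle markers, led by TAGLN, summed to between 657 and 3910 FPKM in W_Res and to between 151 and 636 FPKM in the other 9 libraries. The distal small intestine list, led by FABP6, spanned 151 to 25067 FPKM and the proximal list, led by S100G, 44.9 to 2848 FPKM. Lymphocyte and plasma cell markers, led by CD3E, summed to 51.4 to 219 FPKM, crypt and dividing cell markers, led by OLFM4, to 231 to 1377 FPKM, and enteric neuron and glia markers, led by UCHL1, to 3.79 to 25.9 FPKM. Of 3 adipocyte markers, CIDEC averaged 41.4 FPKM and was the 1 with a mean of at least 0.5 FPKM. PLIN1 and LEP were at 0 in some libraries. The sum, mainly that of CIDEC, reached 79.1 FPKM at most. The extraction protocol in the labels speaks of an adipose type, although the tissue is given as jejunum. In bulk tissue, fewer cells of a type and less RNA per cell cannot be told apart.

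The members formed a graded series of levels. SIRT3 was the most abundant at 8.81 FPKM (mean over 12 libraries), followed by SIRT2 at 5.27, SIRT6 at 4.33, SIRT4 at 2.38, PRKAA1 at 2.29, SIRT1 at 0.881 and PRKAA2 at 0.787 FPKM. SIRT3 exceeded SIRT2 in 12 of 12 libraries. SIRT2 exceeded SIRT6 in 10 of 12, SIRT6 exceeded SIRT4 in 9, SIRT4 exceeded PRKAA1 in 7, PRKAA1 exceeded SIRT1 in 10, and SIRT1 exceeded PRKAA2 in 8. Of these 6 neighbouring pairs, SIRT3 over SIRT2 was therefore the 1 whose order was kept in every piglet. Among the 12886 names with a mean of at least 0.5 FPKM, SIRT3 stood above 66.3% and SIRT1 above 8.70%. SIRT1, the sirtuin most often named as a resveratrol target, was the least abundant of the 5 sirtuins measured.

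**Figure D1:**
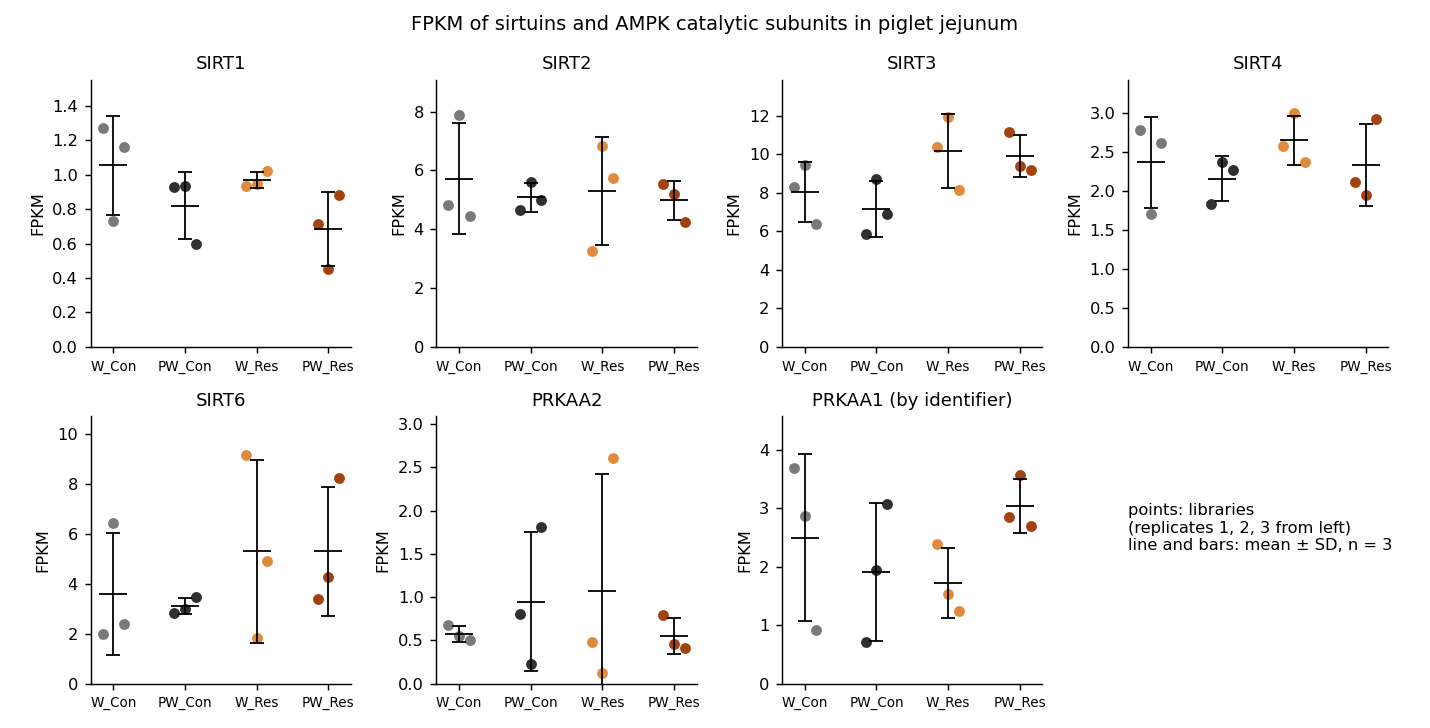
FPKM of each member (vertical axis, from 0) in the 4 groups, with points for libraries and a line and bars for the mean ± SD (n = 3). SIRT3 lay between 5.84 and 11.9 FPKM and was higher in each PW_Res library than in any PW_Con library, where 17.2% of all names did not overlap. SIRT1 was lower in each PW_Res than in any W_Res library, where 21.7% of all names did not overlap, and the groups of SIRT2, SIRT4 and SIRT6 overlapped in each comparison drawn here.

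Of the nuclear sirtuins, SIRT1 deacetylates transcription factors and coactivators such as p53, FOXO proteins and PGC-1 alpha. SIRT1 measured 1.27, 0.729 and 1.16 FPKM in W_Con replicates 1 to 3 and 0.936, 0.945 and 1.02 FPKM in W_Res. After weaning it measured 0.931, 0.934 and 0.598 FPKM in PW_Con and 0.713, 0.454 and 0.880 FPKM in PW_Res. The lowest group mean was that of PW_Res, 0.682 ± 0.215 FPKM (SD, n = 3), and the highest that of W_Con, 1.05 ± 0.287 FPKM. In resveratrol litters each weaned library lay below each sucking library, where 21.7% of all names did not overlap. In control litters the ages overlapped. SIRT1 overlaps HERC4 in the RefSeq annotation, and reads of both may not be separable without strand.

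SIRT6 deacetylates histones and takes part in DNA repair and in the control of glycolytic genes. It measured 1.98, 6.42 and 2.40 FPKM in W_Con and 9.16, 1.85 and 4.92 FPKM in W_Res. The weaned piglets gave 2.84, 3.01 and 3.48 FPKM in PW_Con and 3.38, 4.27 and 8.24 FPKM in PW_Res. Both the highest and the lowest library belonged to W_Res, so the spread within that group covered the whole range of the gene. The within-group coefficient of variation of SIRT6 was 59.2%, higher than in 90.1% of the 2875 names whose mean lay within a factor of 1.5 of its own. PW_Con was the exception, with a coefficient of variation of 10.7%.

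SIRT2, the cytoplasmic sirtuin that deacetylates alpha-tubulin among other proteins, measured 4.83, 7.88 and 4.47 FPKM in W_Con and 3.26, 6.84 and 5.76 FPKM in W_Res. The corresponding values after weaning were 4.65, 5.62 and 5.01 FPKM in PW_Con and 5.53, 5.20 and 4.24 FPKM in PW_Res. The 4 group means lay between 4.99 and 5.73 FPKM, and the sucking groups were the more variable, with coefficients of variation of 32.7% and 34.7% against 9.59% and 13.4% in the weaned groups.

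SIRT3 is the main deacetylase of the mitochondrial matrix, acting on enzymes of fatty acid oxidation and on the antioxidant enzyme SOD2. It measured 8.28, 9.46 and 6.36 FPKM in W_Con and 10.4, 11.9 and 8.13 FPKM in W_Res. Weaned piglets gave 5.84, 8.71 and 6.89 FPKM in PW_Con and 11.2, 9.36 and 9.17 FPKM in PW_Res. At 28 days the lowest library of the resveratrol litters thus stood above the highest of the control litters, where 17.2% of all names did not overlap. At 21 days the diets overlapped. Group means were 8.03 ± 1.56, 10.1 ± 1.91, 7.15 ± 1.45 and 9.90 ± 1.10 FPKM in W_Con, W_Res, PW_Con and PW_Res (SD, n = 3).

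SIRT4, a mitochondrial sirtuin known to restrain glutamate dehydrogenase, measured 2.78, 1.70 and 2.61 FPKM in W_Con and 2.58, 3.00 and 2.37 FPKM in W_Res. It measured 1.83, 2.37 and 2.27 FPKM in PW_Con and 2.11, 1.95 and 2.93 FPKM in PW_Res. No 2 groups of SIRT4 were separated by these values in the comparisons made, and its highest library was 1.76 times its lowest. Its within-group coefficient of variation, 18.8%, was higher than in only 7.40% of the 2663 names of like level.

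The 5 sirtuins summed to 20.8 ± 4.80 FPKM in W_Con, 24.4 ± 2.06 in W_Res, 18.3 ± 2.27 in PW_Con and 23.2 ± 2.12 FPKM in PW_Res (SD, n = 3). The mitochondrial SIRT3 and SIRT4 together made up 51.7 ± 5.32% of that sum over the 12 libraries, from 42.6% to 60.8%. The group means of this share lay between 50.5% and 52.9%, closer together than the libraries of any group were to one another in W_Con or W_Res, where the SD was 7.74 and 7.30 percentage points. SIRT3 alone made up 38.9 ± 3.81% in W_Con, 41.5 ± 6.27% in W_Res, 38.7 ± 3.07% in PW_Con and 42.9 ± 6.44% in PW_Res. The share of SIRT6 in the sum ran from 7.51% in W_Res replicate 2 to 34.8% in W_Res replicate 1.

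The AMPK alpha subunits came from more than 1 assembled locus each. PRKAA2 encodes alpha 2, the form known best from muscle. It measured 0.681, 0.547 and 0.501 FPKM in W_Con and 0.483, 0.121 and 2.61 FPKM in W_Res. In weaned piglets it measured 0.809, 0.225 and 1.81 FPKM in PW_Con and 0.789, 0.461 and 0.406 FPKM in PW_Res. W_Res replicate 3 and PW_Con replicate 3 stood apart from the other 10 libraries, which all lay below 1 FPKM.

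The high PRKAA2 values did not come from the locus that carries the Ensembl transcript. That locus was at 0.340 FPKM in W_Res replicate 3 and at 0.592 FPKM in PW_Con replicate 3. The rest of the sum in W_Res replicate 3 came from a pair of loci with assembled transcripts alone, at 1.62 and 0.652 FPKM, and in PW_Con replicate 3 from 1 of them, at 1.22 FPKM. At the annotated locus alone, the range over the 12 libraries was 0.121 to 0.745 FPKM with a mean of 0.384 FPKM, below the 0.5 FPKM needed for a test.

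PRKAA1 encodes alpha 1, the form found in most tissues. It measured 3.70, 2.87 and 0.917 FPKM in W_Con and 2.39, 1.53 and 1.24 FPKM in W_Res. After weaning it measured 0.718, 1.95 and 3.07 FPKM in PW_Con and 2.86, 3.57 and 2.69 FPKM in PW_Res. The weaned libraries of resveratrol litters all lay above the sucking ones, where 21.7% of all names did not overlap. In control litters, whose libraries ran from 0.718 to 3.70 FPKM, the ages overlapped. In W_Res replicate 2 the annotated locus stood at 0.110 FPKM and a second locus, with no Ensembl transcript, at 1.42 FPKM, whereas that second locus was at or below 0.126 FPKM in the other 11 libraries. PRKAA1 made up 74.6 ± 19.0% of the alpha subunit FPKM (SD, n = 12), with a median of 83.6% and a lowest value of 32.3% in W_Res replicate 3. With the locus of highest mean for each gene alone, the share was 79.0 ± 16.1% (SD, n = 12). Its lowest value was then 45.8% in PW_Con replicate 1, with W_Res replicate 3 at 78.5% and W_Res replicate 2 at 47.7%.

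**Figure D2:**
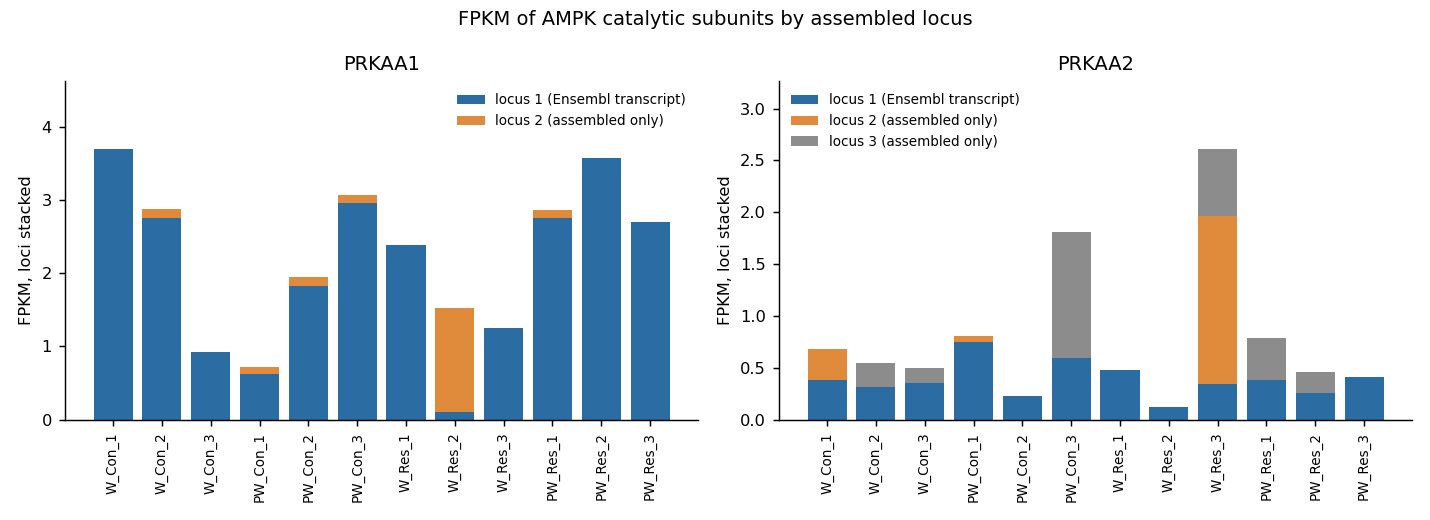
FPKM of the AMPK catalytic subunits in each library (vertical axis, from 0), with assembled loci of the same gene stacked and coloured by whether they hold an Ensembl transcript. The PRKAA2 bars of W_Res replicate 3 (2.61 FPKM) and PW_Con replicate 3 (1.81 FPKM) consist mainly of assembled-only loci, as does the PRKAA1 bar of W_Res replicate 2.

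The question whether weaning or maternal resveratrol was accompanied by a change of these mRNAs was addressed with limma on log2(FPKM + 1), fitted over all 12886 names. Log2 fold changes below are differences on that scale, which understates changes of genes near 1 FPKM such as SIRT1 and PRKAA2. All 6 members found by name passed the filter of 0.5 FPKM. With 7 comparisons this gave 42 member effects. The adjusted p (Benjamini-Hochberg, limma) was under 0.05 for 0 of the 42, and its lowest value was 0.369. The unadjusted P was under 0.05 for 1 of the 42, and 0 passed the fold limit of 1 on the log2 scale that the study applied. The largest absolute log2 fold change was 0.54. Under the linear model of Ballgown, with its library-size covariate, 3 of the effects passed that fold limit, none with an unadjusted P under 0.05: SIRT6 between diets at 21 days (1.04) and SIRT6 and PRKAA2 for weaning in resveratrol litters (-1.80 and -1.23). The 95% interval lay within 1 and -1 for 31 of the 42 effects, so that a doubling of FPKM + 1 falls outside it. It reached past these limits for 11, all of SIRT6 or PRKAA2. For genes near 1 FPKM such as SIRT1, a doubling or halving of FPKM itself is a smaller step and may lie inside the interval.

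Weaning was tested in each diet. In control litters 0 of 6 members had an unadjusted P under 0.05, where 15.3% of all names did, and 0 had an adjusted p under 0.05, where the share of all names was 0%. Member log2 fold changes lay between -0.17 and 0.22, and 0 members had groups that did not overlap, against 24.9% of all names. In resveratrol litters 0 members had an unadjusted P under 0.05 (17.6% of all names) or an adjusted p under 0.05 (0%). SIRT1 was the 1 member without overlap, where 21.7% of all names had none. Its log2 fold change there was -0.23 (SE 0.19, 95% interval -0.65 to 0.19, adjusted p = 0.553 from limma). Before adjustment limma gave 0.248, and the exact permutation test gave p = 0.1, two-sided, the smallest that 20 arrangements of 3 against 3 allow. PRKAA1 in the same comparison was higher by 0.59 (SE 0.37, 95% interval -0.22 to 1.39, limma adjusted p = 0.432), with an exact permutation p of 0.1 as well. In this comparison 6 of 7 smooth muscle markers were lower at an unadjusted P under 0.05 (median log2 fold change of the whole list -2.16). So were 3 of 4 enteric neuron and glia markers (list median -0.96), beside 14.2% of all names. The part of these cell types in the SIRT1 and PRKAA1 values was not tested.

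Averaged over both diets, weaning gave 0 members with an unadjusted P under 0.05, beside 19.0% of all names, and 0 with an adjusted p under 0.05, beside 0.0776%. The member with the lowest P was SIRT1, at -0.20 (SE 0.14, 95% interval -0.50 to 0.10, limma adjusted p = 0.436). The unadjusted P was 0.164 in limma, and an exact permutation test within diets gave p = 0.045, two-sided, 1 of 2 values under 0.05 among the 12 exact tests of members that could reach it. Quantile normalization left this SIRT1 difference close to 0, at -5.94e-05, and turned the direction of the SIRT1 difference in resveratrol litters, to 0.13. A pseudocount of 0.1 moved the same differences to -0.40 and -0.49. The median of all names was -0.15 for weaning in resveratrol litters and 0.01 once libraries were rescaled by median-of-ratios size factors, and SIRT1 then stood at -0.14. SIRT3 was not separated by age, with a log2 fold change of -0.09 and a 95% interval of -0.41 to 0.23.

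The difference of the weaning effect between diets was tested directly. The unadjusted P was under 0.05 for 0 of 6 members, compared with 13.7% of all names, and the adjusted p for 0 of 6, compared with 0%. Estimates of the 6 ran from -0.46 for PRKAA2 to 0.15 for SIRT6, with 95% intervals of -1.71 to 0.79 and -1.29 to 1.58. With 1 library left out, PRKAA2 ran from -0.81 to 0.04 and SIRT6 from -0.33 to 0.58, so both directions turned. PRKAA1 stood at 0.84 with an interval of -0.30 to 1.98 (limma adjusted p = 0.486), from 0.50 without PW_Con replicate 1 to 1.22 without W_Con replicate 3.

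**Figure D3:**
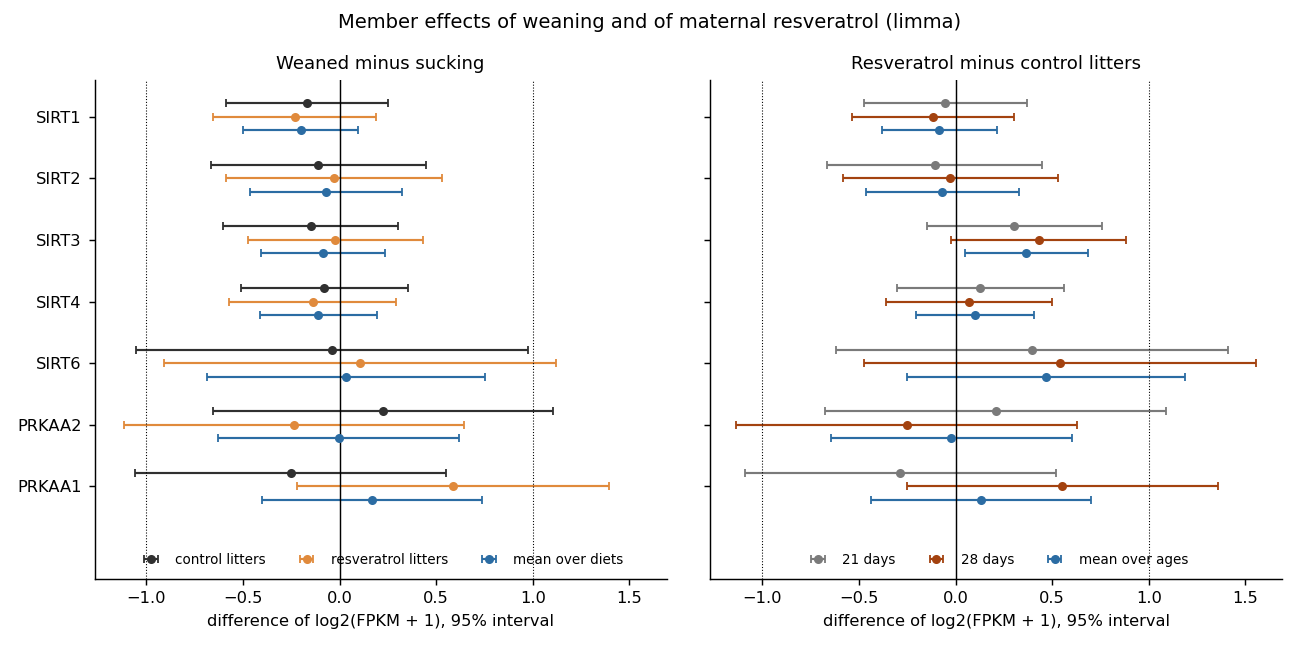
Log2 fold changes (horizontal axis, difference of log2(FPKM + 1)) with 95% intervals from limma for weaning at left and maternal resveratrol at right. The interval of SIRT3 for resveratrol averaged over ages, 0.05 to 0.69, is the 1 that leaves out 0, and the intervals of SIRT6, PRKAA2 and PRKAA1 are the widest.

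Maternal resveratrol was compared at each age. At 21 days 0 of 6 members had an unadjusted P under 0.05, beside 18.5% of all names, and 0 an adjusted p under 0.05, beside 0.0466%. The diets overlapped for all 6 members, where 21.0% of all names had no overlap. At 28 days 0 members had an unadjusted P under 0.05 (7.76% of all names) or an adjusted p under 0.05 (0%), and SIRT3 was the 1 member without overlap, where 17.2% of all names had none. SIRT3 was higher in resveratrol litters by 0.30 at 21 days (95% interval -0.15 to 0.76, limma adjusted p = 0.458) and by 0.43 at 28 days (-0.02 to 0.88, adjusted p = 0.654). The unadjusted P at 28 days was 0.0607 in limma, and the exact permutation p was 0.3 at 21 days and 0.1 at 28 days. The Ballgown model turned the direction at 21 days, to -0.02. At 28 days the unadjusted P was under 0.05 after median-of-ratios rescaling (0.52), quantile normalization (0.47), with the replicate block (0.43) and without PW_Con replicate 2 (0.56), with limma adjusted p from 0.533 to 0.697.

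Averaged over both ages, SIRT3 was 0.37 higher in resveratrol litters (SE 0.15, 95% interval 0.05 to 0.69, limma adjusted p = 0.369). The unadjusted P was 0.0282 in limma, and the exact permutation test within ages gave p = 0.025, two-sided, over 400 arrangements. SIRT3 was the 1 of 6 members with an unadjusted P under 0.05, where 12.3% of all names had one, and 0 members reached an adjusted p under 0.05, where 0.140% of all names did. A share of 1 in 6 is near the share over all names. The unadjusted P rose above 0.05 when any 1 of 5 libraries was left out, W_Con replicate 3, W_Res replicate 2, PW_Con replicate 1, PW_Con replicate 3 or PW_Res replicate 1, with estimates from 0.30 to 0.36.

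SIRT6 had the largest member estimate for maternal resveratrol, 0.47 over both ages, with a 95% interval of -0.25 to 1.19 (limma adjusted p = 0.562). Its diets overlapped at both ages, and with 1 library left out the estimate ran from 0.25 without W_Res replicate 1 to 0.71 without W_Res replicate 2. Without PW_Res replicate 3 it was 0.31. At 21 days alone the estimate of 0.39 ran from -0.04 without W_Res replicate 1 to 0.88 without W_Res replicate 2, and at 28 days that of 0.54 from 0.23 without PW_Res replicate 3 to 0.77 without PW_Res replicate 1. Of these fits, that over both ages without W_Res replicate 2 had an unadjusted P under 0.05. The remaining sirtuins had narrower intervals in this comparison. SIRT1 stood at -0.08 (-0.38 to 0.21), SIRT2 at -0.07 (-0.46 to 0.33) and SIRT4 at 0.10 (-0.21 to 0.40). PRKAA2 stood at -0.02 (-0.65 to 0.60) and PRKAA1 at 0.13 (-0.44 to 0.70).

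The SIRT3 values were set beside the smooth muscle markers because these differed between the diets at 21 days. At that age 6 of 7 smooth muscle markers had an unadjusted P under 0.05, all higher in resveratrol litters, beside 13.05% of all names, with a median log2 fold change of 2.21. The highest SIRT3 library, W_Res replicate 2, had the highest smooth muscle sum, 3910 FPKM. The lowest SIRT3 library, PW_Con replicate 1, had 407 FPKM, and the 2 lowest smooth muscle sums, 151 FPKM in W_Con replicate 3 and 196 FPKM in PW_Res replicate 3, went with SIRT3 at 6.36 and 9.17 FPKM. At 28 days 0 of the 7 markers had an unadjusted P under 0.05, where 7.76% of all names did, and their sums were 407, 557 and 463 FPKM in PW_Con and 636, 446 and 196 FPKM in PW_Res. At 28 days the proximal intestine markers summed to 342 to 1046 FPKM in PW_Res against 44.9 to 90.6 FPKM in PW_Con. The distal markers summed to 25067, 335 and 269 FPKM in PW_Res against 6998 to 10276 FPKM in PW_Con, with a median log2 fold change of -1.98. The part of these lists in the SIRT3 result was not tested.

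**Figure D4:**
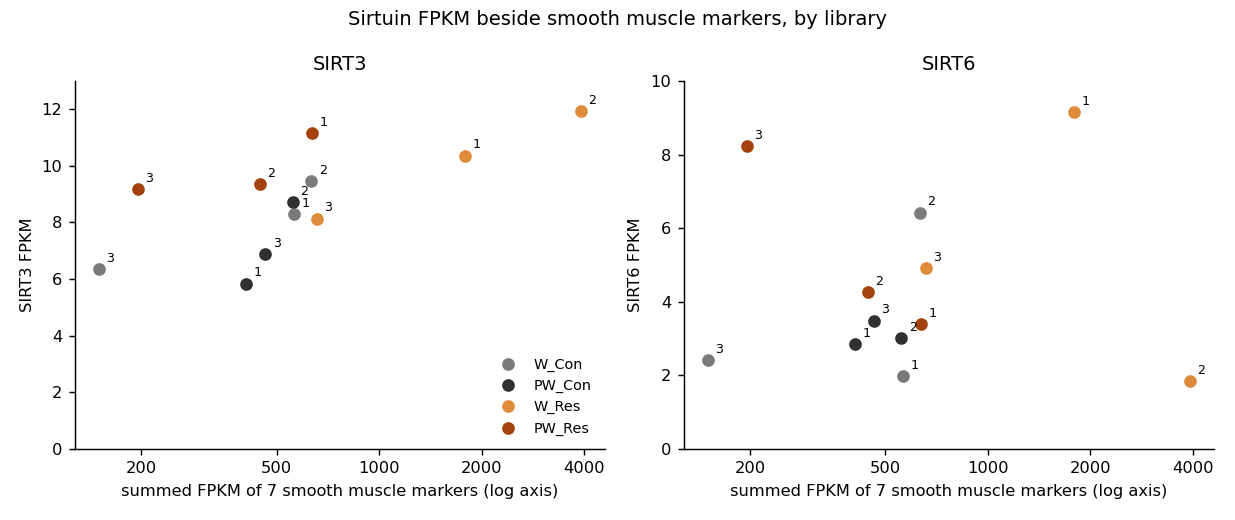
FPKM of SIRT3 and of SIRT6 (vertical axes, from 0) against the summed FPKM of 7 smooth muscle markers (horizontal log axis), with 1 point per library and its replicate number. W_Res replicate 2 lies at the far right in both plots, with the highest SIRT3 (11.9 FPKM) and the lowest SIRT6 (1.85 FPKM) of the 12 libraries.

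Genes around the members were followed in 7 lists with 84 genes in all, of which 70 were matched and 63 tested. The adjusted p from limma was under 0.05 for 0 of the 63 in each of the 7 comparisons. The unadjusted P was under 0.05 for 15 of 63 at 21 days between diets (23.8%), for 4 of 63 at 28 days (6.35%) and for 12 of 63 averaged over both ages (19.0%). For weaning it was 11 of 63 in control litters (17.5%) and 8 of 63 in resveratrol litters (12.7%). The corresponding shares of all names were 18.5%, 7.76%, 12.3%, 15.3% and 17.6%.

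Between diets at 21 days, the AMPK substrates were the list with the most members below an unadjusted P of 0.05. There 5 of 11 tested were higher in resveratrol litters and 0 lower, beside 13.05% and 5.45% of all names, with a median log2 fold change of 0.39 where the median of all names was 0.08. These were ACACB, the acetyl-CoA carboxylase that restrains fatty acid entry into mitochondria, ULK1, the kinase that starts autophagy, TSC2, an inhibitor of mTORC1, CRTC2, a CREB coactivator, and MLXIPL, the glucose-responsive factor ChREBP. ACACB had the lowest P of the list. It measured 0.755, 1.09 and 1.03 FPKM in W_Con and 2.65, 3.64 and 2.90 FPKM in W_Res, a log2 fold change of 1.05 (SE 0.18, limma adjusted p = 0.0741). TSC2 followed with 0.79 (adjusted p = 0.0935 from limma). The sucking libraries of the diets did not overlap for these 5 genes, which were picked for a low P, where 21.0% of all names had no overlap.

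At 28 days 0 of the 11 AMPK substrates had an unadjusted P under 0.05, where 7.76% of all names did, and the median log2 fold change was -0.03. The weaned groups had ACACB at 0.922, 1.33 and 1.39 FPKM in PW_Con and 1.52, 1.29 and 1.31 FPKM in PW_Res. In control litters 5 of 11 substrates were higher after weaning at an unadjusted P under 0.05, beside 8.11% of all names. In resveratrol litters 0 were higher, beside 3.40% of all names, and ACACB alone was lower, beside 14.2% (log2 fold change -0.77, limma adjusted p = 0.125). The weaning effects of 5 of the 11 differed between diets at an unadjusted P under 0.05, beside 13.7% of all names, each with an adjusted p of at least 0.251. These comparisons share the W_Con and W_Res libraries. The 3 W_Res libraries had the highest smooth muscle sums. Between diets at 21 days, 3 of 10 villus enterocyte markers were lower at an unadjusted P under 0.05 (median log2 fold change of the whole list -0.82). By the same limit 2 of 4 enteric neuron and glia markers were higher (list median 0.65). Lower were 3 of 9 lymphocyte and plasma cell markers (list median -0.38). Of all names 13.05% were higher and 5.45% lower. For weaning in control litters, 3 of 10 villus enterocyte markers were lower at an unadjusted P under 0.05 (median of the whole list -0.20). So were 2 of 5 proximal intestine markers (list median -1.55), beside 7.21% of all names. Of the distal markers 1 of 5 was higher (list median 1.33), beside 8.11%. The part of these marker lists in the substrate values was not tested.

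**Figure D5:**
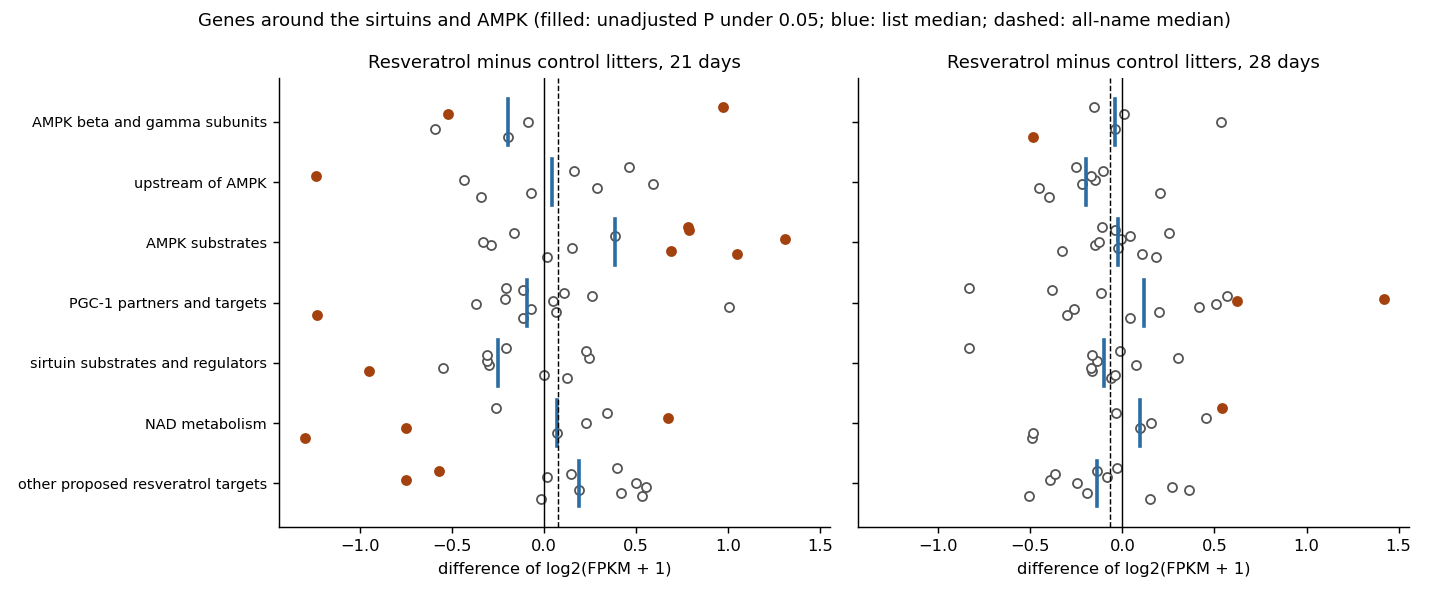
Log2 fold change between resveratrol and control litters (horizontal axis, difference of log2(FPKM + 1)) of each tested gene in 7 lists, at 21 days at left and 28 days at right, with filled points for an unadjusted P under 0.05. At 21 days 5 of 11 AMPK substrates are filled on the higher side, beside 13.05% of all names, and at 28 days 0 of 11 are filled on either side, beside 7.76%.

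The partner subunits of AMPK were expressed above the alpha subunits in some cases and below them in others. PRKAB1, which encodes beta 1, averaged 16.8 ± 1.24 FPKM in W_Con and 14.7 ± 2.89 FPKM in W_Res. It averaged 18.0 ± 1.92 FPKM in PW_Con and 12.6 ± 2.05 FPKM in PW_Res (log2 fold change -0.48, limma adjusted p = 0.586). The diets did not overlap at 28 days for PRKAB1 or, in the other direction, for PRKAG1 (0.54, limma adjusted p = 0.683). Of all names 17.2% had no overlap there. PRKAG3, the gamma 3 subunit known from skeletal muscle, had the lowest P of its list. It measured 0.577, 1.03 and 0.163 FPKM in W_Con and 1.13, 3.80 and 1.77 FPKM in W_Res. At 21 days it was 0.97 higher in the resveratrol litters (SE 0.33, limma adjusted p = 0.163), and at 28 days it stood at -0.15. PRKAG2, found through its Ensembl identifier, averaged 47.0 ± 6.59 FPKM in W_Con and 33.2 ± 10.1 FPKM in W_Res. PRKAG2 was 0.52 lower in W_Res (limma adjusted p = 0.267). Of the 5 subunits, 1 was higher and 1 lower at 21 days at an unadjusted P under 0.05, beside 13.05% and 5.45% of all names.

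Upstream of AMPK, STK11 encodes LKB1, the kinase that activates it, and PPM1A a phosphatase that can reverse that step. STK11 averaged 13.5 ± 1.22 FPKM in W_Con and 17.8 ± 0.977 FPKM in PW_Con, 0.38 higher after weaning in control litters (limma adjusted p = 0.258). In resveratrol litters it averaged 15.2 ± 1.19 FPKM in W_Res and 16.4 ± 1.00 FPKM in PW_Res, a log2 fold change of 0.11 (limma adjusted p = 0.731). PPM1A had the lowest P of its list. It measured 10.8, 12.8 and 13.4 FPKM in W_Con and 3.81, 5.25 and 4.96 FPKM in W_Res, a log2 fold change of -1.24 (SE 0.35, limma adjusted p = 0.125). In the weaned groups PPM1A measured 3.68, 10.7 and 2.66 FPKM in PW_Con and 4.96, 3.54 and 4.21 FPKM in PW_Res, so W_Con and 1 PW_Con library stood above the rest.

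Among PGC-1 partners and targets, PPARG, the nuclear receptor PPAR gamma, had the lowest P. It measured 3.98, 1.28 and 1.80 FPKM in W_Res and 4.97, 11.6 and 11.2 FPKM in PW_Res, 1.62 higher after weaning (SE 0.42, limma adjusted p = 0.135). In control litters the ages overlapped, with 2.10, 2.10 and 4.16 FPKM in W_Con and 4.93, 1.27 and 2.56 FPKM in PW_Con. PPARGC1B, the relative of PPARGC1A and named for that reason after its values were seen, averaged 1.60 ± 0.645 FPKM in W_Con, 2.36 ± 1.61 in W_Res, 2.16 ± 0.681 in PW_Con and 4.21 ± 2.66 FPKM in PW_Res, and its groups overlapped in each comparison.

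Among sirtuin substrates and regulators, CPS1, the first enzyme of the urea cycle and a target of SIRT5, had the lowest P. It measured 208.6, 152.0 and 214.7 FPKM in W_Con and 87.6, 76.8 and 100.7 FPKM in PW_Con, 1.10 lower after weaning in control litters (SE 0.36, limma adjusted p = 0.182). In the resveratrol litters the ages overlapped, with 73.9, 88.8 and 141 FPKM in W_Res and 147, 54.5 and 60.0 FPKM in PW_Res. For weaning in control litters, 3 of 10 villus enterocyte and 2 of 5 proximal intestine markers were also lower at an unadjusted P under 0.05. The share of all names was 7.21%. The part of these markers in the CPS1 values was not tested. Of the 10 sirtuin substrates and regulators tested, the median log2 fold change between diets was -0.25 at 21 days and -0.10 at 28 days. The medians of all names were 0.08 and -0.07. After median-of-ratios rescaling the medians of the 10 genes were -0.34 and 0.00019.

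Genes of NAD metabolism set the supply of the sirtuin cosubstrate. CD38, which breaks down NAD and marks some lymphocytes, had the lowest P of its list. It measured 13.6, 5.08 and 27.8 FPKM in W_Con and 6.28, 4.77 and 3.08 FPKM in W_Res, with overlap between diets (log2 fold change -1.30, SE 0.45, limma adjusted p = 0.168). Of the 7 genes tested at 21 days, 1 was higher and 2 were lower at an unadjusted P under 0.05, beside 13.05% and 5.45% of all names. Among other proposed resveratrol targets, the phosphodiesterase PDE1C had the lowest P. It measured 3.68, 8.01 and 3.22 FPKM in W_Res and 2.28, 1.64 and 1.95 FPKM in PW_Res, 0.93 lower after weaning in resveratrol litters (SE 0.30, limma adjusted p = 0.167). In control litters the ages overlapped, with 3.60, 3.78 and 1.86 FPKM in W_Con and 2.43, 2.95 and 2.17 FPKM in PW_Con. W_Res replicate 2, at 8.01 FPKM, had the highest smooth muscle sum. For weaning in resveratrol litters 6 of 7 smooth muscle markers were lower at an unadjusted P under 0.05 (list median -2.16), beside 14.2% of all names. The part of smooth muscle in the PDE1C values was not tested.

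The genes whose pattern over the 12 libraries was most like a member were sought among 7739 symbols with a mean of at least 1 FPKM, for the 3 that varied most on the log2 scale among the 6 members found by name. PRKAA1, outside the 6, had an SD of 0.49 on that scale, above 0.48 for PRKAA2 and 0.28 for SIRT3, and was not searched. The measure was the root mean square difference of log2(FPKM + 1) after removing each gene's mean, with 12 libraries. For SIRT6 the nearest were SLC12A8 (0.36), snoU89 (0.41) and TRIAP1 (0.41), where SIRT6 itself varied by 0.58 around its mean. For PRKAA2, which varied by 0.46, they were SPA17 (0.19), RAB24 (0.24) and S100A14 (0.27). SIRT3 varied by 0.27, and VAV2 (0.14), ALOX5 (0.16) and HERC3 (0.16) were nearest. These are descriptions of 12 libraries, and the 3 genes nearest to PRKAA2 had their highest value in W_Res replicate 3 or PW_Con replicate 3, where PRKAA2 came mainly from assembled-only loci.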

How the data were processed

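The authors deposited 1 table of FPKM values for 41264 loci in 12 libraries. Their paper names TopHat, StringTie and Ballgown, and the submitters' processing notes list HISAT2 2.0, Bowtie 0.12.2 and StringTie 1.3.0 with the builds Sscrofa10.2 and mm8, so the aligner is uncertain. Whether reads were assigned by strand is not given in the sources used here. The 17650 loci without a name were left out, and 0 value columns were unmatched. Loci with the same name were summed, although each FPKM is scaled to its own locus.

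Log2(FPKM + 1) was analysed with limma 3.58.1 (lmFit, eBayes with a trend) in R 4.3.3 over 4 group means, with 8 residual degrees of freedom, for names with a mean of at least 0.5 FPKM. Benjamini-Hochberg adjustment covered the 12886 names. Exact permutation tests used 20 arrangements for 3 against 3 (smallest p 0.1) and 400 within strata (smallest p 0.005). The FPKM table carries no counts, and the read totals that the study gives for the control libraries were not used here, so no counting intervals are given.

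Alternatives were median-of-ratios and quantile scaling, a pseudocount of 0.1, no filter, a mean of at least 5 FPKM, the highest locus per name, the compared groups alone, the Ballgown model, a replicate block, eBayes with its trend off, and leaving out each library. Named were the members, list genes with an adjusted p under 0.05 and the gene with the lowest P in each list, and the 3 nearest patterns to the 3 most variable of the 6 members found by name. STK11, PRKAB1, PRKAG1, PRKAG2, the other AMPK substrates and PPARGC1B were named beside them after their values were seen. The members and lists were chosen with earlier results of these data known. The annotated neighbours and overlaps come from RefSeq on Sscrofa11.1, a build other than the Sscrofa10.2 of the submitters' notes. FPKM values of neighbours were looked up by gene name.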

Additional observations from a re-analysis of the deposited data

How the results depend on the processing

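Over 22 alternatives, 12 of which left out 1 library, 871 member effects were recomputed. The adjusted p was under 0.05 for 0 of them (lowest 0.259), the unadjusted P for 21, and 91 had the other sign, 0 of these with an unadjusted P under 0.05. The SIRT3 difference between diets over both ages lay between 0.30 and 0.41 under the 9 settings that kept all libraries, each with an unadjusted P under 0.05. It lay between 0.297 and 0.435 with 1 library left out, with an unadjusted P over 0.05 in 5 of 12 cases (0.0506 to 0.0725). The count of members with an unadjusted P under 0.05 for that comparison was accordingly 0 to 1 without 1 library. At 28 days the count was 1, SIRT3, in place of 0 under median-of-ratios rescaling and quantile normalization, and 0 to 1 with 1 library left out (1 without PW_Con replicate 2). With the replicate block it was also 1 at 28 days for SIRT3. Each group holds each replicate number once, so the block could not move the SIRT3 difference of 0.37 over both ages. The replicate numbers were not used as pairs, since no source used here ties them to litters. Same-numbered libraries of different groups had correlations of their deviations from -0.257 to 0.303 (median 0.0144). Differently numbered ones ran from -0.271 to 0.36 (median 0.033). These ranges include pairs across diets, so they cannot show whether litters were shared. The Ballgown model moved SIRT3 at 21 days to -0.02, SIRT6 at 21 days to 1.04, and SIRT6 and PRKAA2 for weaning in resveratrol litters to -1.80 and -1.23, none with an unadjusted P under 0.05, and the cause was not tested. PRKAA1, outside these counts, had an unadjusted P under 0.05 for weaning in resveratrol litters under quantile normalization (0.91) and with the compared groups alone (0.59), and for the difference of the weaning effect under quantile normalization (1.14) and without W_Con replicate 3 (1.22). A minimum of 5 FPKM left SIRT2 and SIRT3 alone, the highest locus per name left PRKAA2 untested, and the compared groups alone gave no mean effect. The counts over all names moved too. For weaning in resveratrol litters 2274 of 12886 names had an unadjusted P under 0.05. This became 1337 of 12698 without W_Res replicate 2 and 493 of 13013 under the Ballgown model. The limma adjusted p was under 0.05 for 0 names with all libraries and for 130 without W_Res replicate 3. FPKM without counts limits what can be said of SIRT1 and PRKAA2, both near 1 FPKM.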

Other observations

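The annotated surroundings of the members bear on how reads can be assigned. In the RefSeq annotation of Sscrofa11.1 the SIRT1 gene overlaps HERC4, SIRT4 overlaps a long non-coding RNA, and PRKAA2 overlaps C6H1orf168 and a pseudogene, so without strand, reads of these genes and of their partners may not be separable. SIRT3 lies between RIC8A and PSMD13 and overlaps neither. PSMD13, a proteasome subunit, averaged 82.6 FPKM over the 12 libraries and RIC8A 17.9 FPKM. At 28 days RIC8A was at -0.46 and PSMD13 at -0.0015 between resveratrol and control litters on the log2 scale, beside 0.43 for SIRT3, and the adjusted p from limma was 0.681 and 1.00. SIRT6 lies between ANKRD24, at 1.96 FPKM, and CREB3L3, a hepatic and intestinal transcription factor at 187 FPKM. Between resveratrol and control litters CREB3L3 stood at 1.19 at 28 days (95% interval -0.03 to 2.41, limma adjusted p = 0.653), at -0.22 at 21 days and at 0.48 over both ages (adjusted p = 0.622), beside 0.54, 0.39 and 0.47 for SIRT6.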
